A study of Mus musculus with 16 samples.

Results

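The 8 interferon regulatory factor genes of the deposited table, Irf1, Irf2, Irf3, Irf4, Irf5, Irf7, Irf8 and Irf9, were followed in mouse bone marrow-derived monocytes (BMDMs) at the start of osteoclast differentiation. They were found by gene name among the 21898 genes listed, without a cut on any measured value. The family itself was chosen with earlier results of these data known. All 8 members passed the filter that left 11559 genes for testing. RNA was sequenced from BMDMs of C57BL/6 mice in 4 groups of 4 libraries. MR + iBRD9 and MR + vector cells were cultured with M-CSF at 50 ng/ml and RANKL at 100 ng/ml, and M + iBRD9 and M + vector cells with M-CSF at 50 ng/ml alone. iBRD9 is a small molecule that blocks the bromodomain of BRD9, which belongs to a chromatin remodeller called non-canonical BAF, and vector is its control treatment. According to the study's methods the mice were a few weeks old and the inhibitor was present for the opening day of differentiation. All groups shared M-CSF and the mouse strain, and no group carried a mutated allele. Replicates are numbered 1 to 4 in each group without a statement of separate mice or cultures, and the p-values below therefore reflect spread among libraries that may be technical only.

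Interferon regulatory factors are transcription factors that share a DNA-binding domain and recognise sequences built around the letters GAAA. IRF3, IRF5 and IRF7 are activated by kinases downstream of sensors of foreign nucleic acid and switch on interferon genes, IRF9 joins STAT proteins in the complex that carries the type I interferon signal to the nucleus, and IRF1 and IRF2 act as activator and antagonist on many of the same genes. IRF4 and IRF8 bind DNA with the macrophage and B cell factor PU.1, and in mice IRF8 holds back osteoclast formation. Interferon-beta is known as a brake on RANKL-driven osteoclastogenesis.

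Before the levels, the DNA ahead of 3 of the members whose transcripts differed between groups is shown. The 300 bases before the start of the Ensembl canonical transcript were read from GRCm39 with the GENCODE vM39 annotation for 11554 of the 11559 genes tested, among them all 8 members. They were searched on both strands for GAAANNGAAA, a core of the interferon-stimulated response element (ISRE), for GGAANNGAAA, the composite letters that PU.1 and an interferon regulatory factor read together, for TTCNNNGAA, the gamma-activated site (GAS) read by STAT factors, and for the NF-kB consensus. Capitals mark matches, the sequences run 5′ to 3′ on the strand of the gene, and the last base stands next to the transcript start.
Irf1, chr11:53660541-53660840, plus strand: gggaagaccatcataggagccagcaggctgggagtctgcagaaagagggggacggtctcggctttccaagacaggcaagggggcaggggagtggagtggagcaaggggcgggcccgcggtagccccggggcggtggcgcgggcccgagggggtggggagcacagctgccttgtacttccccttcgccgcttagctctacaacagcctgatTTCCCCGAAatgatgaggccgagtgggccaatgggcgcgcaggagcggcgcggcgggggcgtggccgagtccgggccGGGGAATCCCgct
Irf8, chr8:121462797-121463096, plus strand: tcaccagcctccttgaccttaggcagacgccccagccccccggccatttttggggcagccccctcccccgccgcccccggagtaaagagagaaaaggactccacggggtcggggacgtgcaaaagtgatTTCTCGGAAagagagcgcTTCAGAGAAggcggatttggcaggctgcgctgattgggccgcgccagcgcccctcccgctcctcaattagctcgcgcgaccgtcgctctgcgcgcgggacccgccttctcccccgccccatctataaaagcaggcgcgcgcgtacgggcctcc
Irf7, chr7:140846399-140846698, minus strand: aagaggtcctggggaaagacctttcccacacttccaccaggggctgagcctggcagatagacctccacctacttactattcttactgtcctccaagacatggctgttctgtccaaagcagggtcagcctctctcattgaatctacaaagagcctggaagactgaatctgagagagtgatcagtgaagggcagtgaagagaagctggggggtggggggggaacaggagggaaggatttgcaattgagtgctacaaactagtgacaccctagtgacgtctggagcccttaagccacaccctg
The Irf1 stretch held a GAS match, TTCCCCGAA, 90 to 82 bases before the start, and an NF-kB match, GGGGAATCCC, 13 to 4 bases before it. Irf8 held 2 GAS matches, TTCTCGGAA at 171 to 163 bases and TTCAGAGAA at 153 to 145 bases before the start. The Irf7 stretch held none of the 4 patterns, and neither did those of Irf4 and Irf9. The Irf9 stretch, 55841142 to 55841441, lies inside the deposited gene, which starts at 55841028. DNA ahead of that outer start was not searched. Of the members, only Irf2 had the ISRE letters, GAAAATGAAA at 221 to 212 bases, overlapping a PU.1 composite match, GGAAGTGAAA at 227 to 218 bases, with a GAS match, TTCCGAGAA, at 204 to 196 bases. Irf3 and Irf5 each had 1 NF-kB match, at 236 to 227 and 259 to 250 bases. Among all 11554 stretches, 3.89% held the ISRE letters, 2.86% the composite letters, 8.08% a GAS match and 9.57% an NF-kB match. A match describes letters in this window and says nothing of binding.

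The 16 libraries held 15372775 to 18987926 counts, and no pair of replicates differed by counting error alone. Macrophage markers were present throughout, with all 8 detected and a summed level of 21295 to 22124 CPM (read counts scaled to library size) in MR + iBRD9, 23786 to 24967 in MR + vector, 21762 to 24633 in M + iBRD9 and 20899 to 22525 in M + vector. Most of that sum was Lyz2, at a mean of 17902 CPM. By the test given below, RANKL raised 1 of the 8 and lowered 5 with vector, and raised 0 and lowered 6 under iBRD9. Over all tested genes, 20.1% were higher and 20.6% lower with vector, and 24.6% and 25.8% under iBRD9. The 9 osteoclast markers summed to 837 to 872, 720 to 775, 184 to 197 and 173 to 182 CPM in the same order of groups. Over the 16 libraries, most of that sum came from 1 gene, at a mean of 403 CPM. Calcr, a receptor of mature osteoclasts, was at 0 in every library. Of the 7 osteoclast markers tested, RANKL raised 4 and lowered 2 with vector, and raised 5 and lowered 2 under iBRD9. With RANKL, iBRD9 raised 1 and lowered 1, beside 0.718% and 2.05% of all tested genes. Markers of B and plasma cells, in which Irf4 is also known, summed to at most 3.90 CPM, and T and NK cell markers to at most 1.17 CPM with Cd3e and Cd3d at 0. The cultures are bulk samples, in which fewer cells of a type and less RNA per cell cannot be told apart.

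Per length, Irf5 was the most abundant member in 3 groups and Irf7 in MR + vector, and Irf4 was the least abundant in all 4. In FPKM, which scales a count by library size and gene length, Irf7 stood at 67.6 ± 5.67 in MR + iBRD9, 90.3 ± 7.16 in MR + vector, 28.9 ± 3.33 in M + iBRD9 and 35.0 ± 2.25 in M + vector (SD, n = 4 here and below). Irf5 stood at 79.0 ± 2.56, 77.9 ± 2.98, 75.3 ± 4.83 and 76.8 ± 3.36 FPKM in the same order of groups, and in MR + vector the libraries of Irf5 and Irf7 overlapped. Irf9 stood at 19.3, 19.2, 17.2 and 16.3 FPKM and Irf8 at 17.1, 19.0, 29.0 and 27.5 FPKM. Irf9 and Irf8 overlapped in MR + vector, as did Irf8 and Irf7 in M + iBRD9. Irf1 lay between 10.2 and 12.5 FPKM, Irf3 between 9.89 and 10.3 and Irf2 between 6.70 and 7.19, with overlap of Irf1 and Irf3 in both groups without RANKL. Irf4 had 0.293 ± 0.095 FPKM in MR + iBRD9, 0.250 ± 0.063 in MR + vector, 1.19 ± 0.117 in M + iBRD9 and 1.01 ± 0.157 in M + vector. By its mean FPKM, Irf5 ranked at the 95.3 to 95.4 percentile of the genes tested in the 4 groups and Irf4 at the 6.01 to 17.3 percentile.

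The deposited lengths count every annotated exon, and for Irf7 the length of 3776 bases equals the whole span of the gene. With the length of the canonical transcript instead, Irf7 also led in MR + iBRD9, at 105 ± 9.10 RPKM (scaled as FPKM is) against 103 ± 3.56 for Irf5, and Irf2 stood above Irf3 in every group. The order of neighbouring members thus rests on the length used, while the comparison of 1 gene between groups does not.

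**Figure D1:**
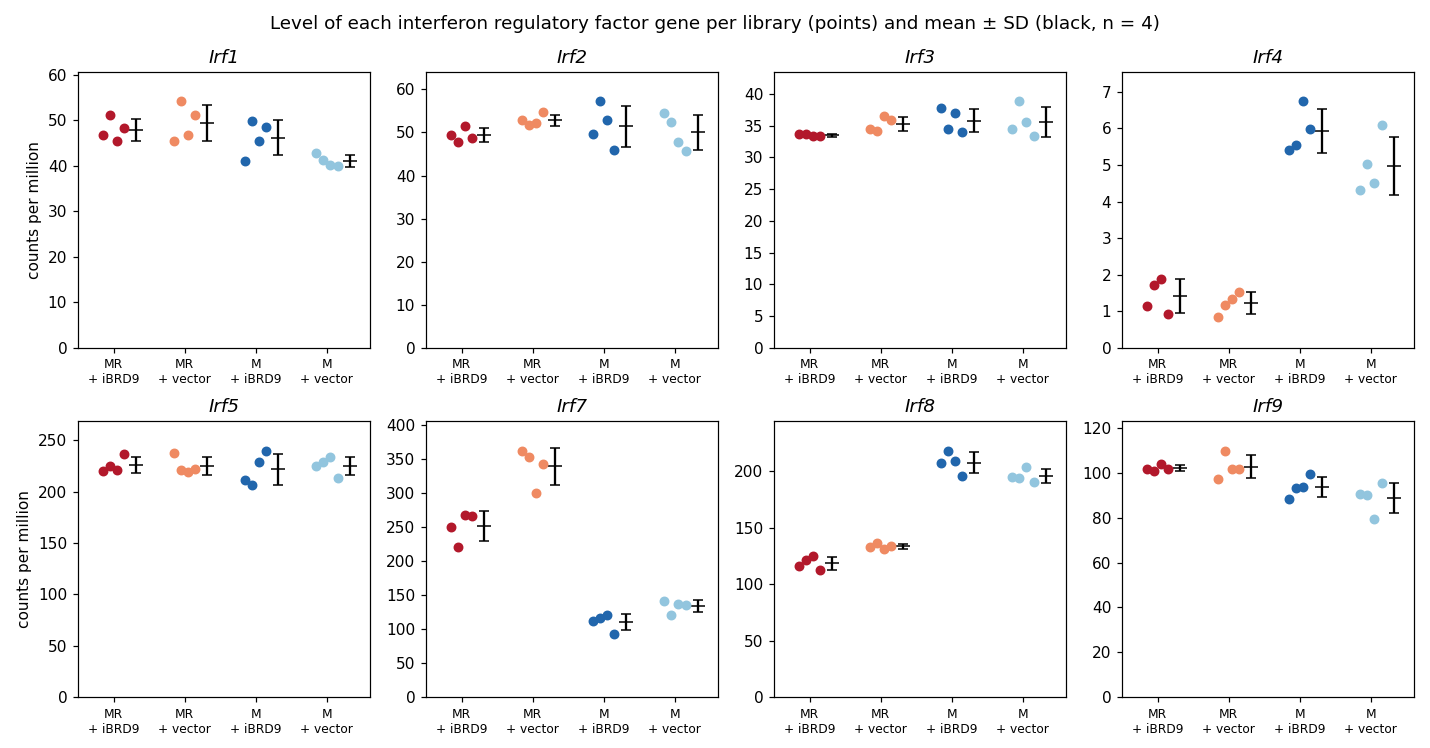
Level in CPM of each member (vertical axes, starting at 0) in the 16 libraries, as points, in MR + iBRD9, MR + vector, M + iBRD9 and M + vector; black marks give mean ± SD (n = 4). Irf7 was highest in MR + vector (339 ± 27.1 CPM), Irf4 and Irf8 were lower in both groups with RANKL, and Irf5 had means of 222 to 225 CPM in all groups.

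With RANKL and vector, Irf7, Irf1 and Irf9 rose and Irf4 and Irf8 fell, while Irf2, Irf3 and Irf5 did not pass the test. That is 3 of 8 members higher and 2 lower, beside 20.1% of all tested genes called higher and 20.6% called lower in MR + vector against M + vector. Under iBRD9, RANKL raised 1 member, Irf7, and lowered 2, Irf4 and Irf8, beside 24.6% higher and 25.8% lower in MR + iBRD9 against M + iBRD9. The members' shares under iBRD9 were thus no larger than those over all genes in either direction, and their share lowered with vector was near it. The median log2 change of the members was 0.04 with vector and -0.02 under iBRD9, beside -0.001 and -0.01 over all tested genes. Calls are at an adjusted p below 0.05 in edgeR's quasi-likelihood test with Benjamini-Hochberg adjustment over all tested genes, and changes are log2 values ± SE from that fit.

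Fewer members were called for iBRD9. With RANKL it lowered 2 of 8, Irf7 and Irf8, and raised 0, beside 2.05% of tested genes lower and 0.718% higher in MR + iBRD9 against MR + vector. Without RANKL it lowered 1, Irf7, and raised 0, beside 3.73% lower and 3.08% higher in M + iBRD9 against M + vector. In the interaction, the iBRD9 response with RANKL minus that without, 1 member, Irf8, was called as more negative and 0 as more positive, beside 1.08% and 1.00% of tested genes. DESeq2 called 2, 1 and 1 members in these comparisons. No member was called higher, and Irf1 had an unadjusted p of 0.013 for a higher level in M + iBRD9 than in M + vector. Over all genes, edgeR gave 1533 unadjusted p-values under 0.05 for iBRD9 with RANKL, 2352 for iBRD9 without RANKL and 1594 for the interaction. Medians over the members were -0.06 with RANKL, 0.06 without and -0.11 for the interaction, against 0, 0.002 and -0.01 over all genes. Comparisons that use the same group share its 4 libraries: the RANKL response with vector and the iBRD9 response with RANKL both contain MR + vector, with opposite sign.

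Library by library, the 4 MR + vector values lay above all M + vector values for 3 members (Irf1, Irf7, Irf9) and below them for 2 (Irf4, Irf8), where 18.9% of tested genes were apart with the higher and 19.3% with the lower values. Under iBRD9 the RANKL groups were apart for 5 members, higher for Irf7 and Irf9 and lower for Irf3, Irf4 and Irf8, beside 21.4% higher and 21.5% lower. MR + iBRD9 libraries lay below all MR + vector libraries for 4 members (Irf2, Irf3, Irf7, Irf8) beside 5.98% of tested genes, and M + iBRD9 libraries below all M + vector libraries for Irf7 alone, beside 5.34%.

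**Figure D2:**
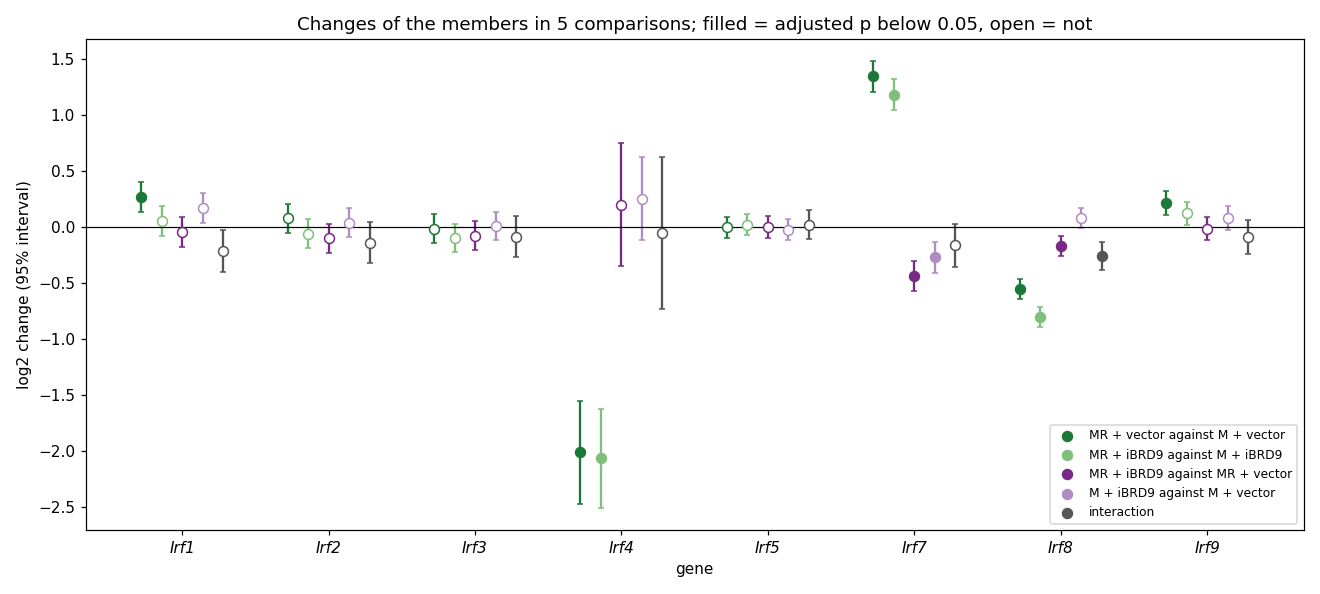
Log2 change of each member (vertical axis) with its 95% interval in the 5 comparisons, coloured by comparison; filled points had an adjusted p below 0.05 and open points did not. Irf7 and Irf4 moved furthest with RANKL (1.35 and -2.01 with vector), and the iBRD9 changes stood between -0.44 and 0.25.

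Irf7 (ENSMUSG00000025498, GRCm39 chromosome 7, 140842619 to 140846394, minus strand) encodes the factor that amplifies type I interferon production and is itself an interferon-stimulated gene. It had 250, 220, 267 and 266 CPM in the 4 MR + iBRD9 libraries, against 362, 352, 300 and 343 CPM in MR + vector. Without RANKL it had 112, 116, 121 and 93.2 CPM in M + iBRD9, against 141, 121, 137 and 135 CPM in M + vector. Every library with RANKL was above every library without it, and every iBRD9 library was at or below the lowest vector library of its RANKL state. Replicate 3 of M + iBRD9 and replicate 2 of M + vector, both at 121 CPM after rounding, were the closest pair. Irf7 shares 45 bases with Phrf1 on the opposite strand, which held 1103 to 1335 counts per library.

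The RANKL response of Irf7 was 1.35 ± 0.07 with vector (adjusted p = 1.6e-17) and 1.18 ± 0.07 under iBRD9 (adjusted p = 4.7e-16), rises of 2.54-fold and 2.27-fold. iBRD9 changed it by -0.44 ± 0.07 with RANKL (adjusted p = 6.3e-05), to 0.739 of the MR + vector level, and by -0.27 ± 0.07 without RANKL (adjusted p = 0.012), to 0.828 of the M + vector level. The difference between both iBRD9 responses, -0.16 with a 95% interval of -0.36 to 0.03, was not called (adjusted p = 0.46). Even under iBRD9, Irf7 in RANKL-treated cells was above its level in cells without RANKL.

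Irf3 (ENSMUSG00000003184, chromosome 7, 44647072 to 44652272), the constitutive factor that opens the interferon response, and Irf5 (ENSMUSG00000029771, chromosome 6, 29526624 to 29541870), which serves Toll-like receptor signalling to inflammatory genes, were called in none of the 5 comparisons. Irf3 averaged 33.4 CPM in MR + iBRD9, 35.2 in MR + vector, 35.8 in M + iBRD9 and 35.6 in M + vector. Its 4 MR + iBRD9 libraries, at 33.6, 33.6, 33.3 and 33.3 CPM, lay below those of MR + vector, at 34.4, 34.2, 36.5 and 35.9 CPM, without passing the test (-0.08, 95% interval -0.21 to 0.05, adjusted p = 0.66). The RANKL change of Irf5 with vector was -0.001 with a 95% interval of -0.10 to 0.09, and its iBRD9 change with RANKL was 0.001 with an interval of -0.09 to 0.10. Both genes share bases with a neighbour on the opposite strand, Irf3 with 1065 bases of Bcl2l12 (31 to 86 counts per library) and Irf5 with 1045 bases of Tnpo3 (1278 to 1553 counts). No source used here gives the strand setting of the counting, so reads of the shared bases cannot be told apart.

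With Irf7 moving and Irf3 and Irf5 not passing the test, the make-up of the sensor-driven members differed between groups. The ratio of Irf7 to Irf3 in FPKM was 6.84 ± 0.62 in MR + iBRD9, 8.79 ± 0.95 in MR + vector, 2.82 ± 0.26 in M + iBRD9 and 3.44 ± 0.41 in M + vector. Relative to Irf5 it was 0.856 ± 0.074, 1.16 ± 0.075, 0.386 ± 0.060 and 0.456 ± 0.037. These ratios describe levels per length and carry no test.

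Irf8 (ENSMUSG00000041515, chromosome 8, 121463097 to 121483433) is the factor that directs progenitors to the monocyte lineage. It had 116, 121, 125 and 112 CPM in MR + iBRD9, against 133, 136, 131 and 134 CPM in MR + vector, and 207, 218, 209 and 196 CPM in M + iBRD9, against 195, 194, 204 and 190 CPM in M + vector. All libraries with RANKL were below all libraries without it, and the MR + iBRD9 libraries were the lowest of all. Without RANKL, the M + iBRD9 and M + vector libraries overlapped. The deposited gene model of Galnt2l covers Irf8 on the same strand and had 0 counts in every library.

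With RANKL, Irf8 changed by -0.55 ± 0.04 with vector (adjusted p = 2e-12) and by -0.81 ± 0.04 under iBRD9 (adjusted p = 1.2e-16), to 0.682 and 0.572 of the level without RANKL. The iBRD9 change was -0.17 ± 0.04 with RANKL (adjusted p = 0.024) and 0.08 ± 0.04 without it (adjusted p = 0.27). The interaction was -0.26 with a 95% interval of -0.38 to -0.13 (adjusted p = 0.022). The iBRD9 call with RANKL was lost, with an adjusted p of up to 0.13, when any 1 of 5 libraries was left out: MR + vector 1, 2 and 4, and MR + iBRD9 1 and 4. For the interaction these were M + vector 2 and 4, M + iBRD9 2, MR + vector 2 and MR + iBRD9 4, with an adjusted p of up to 0.079.

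Markers of other cells moved beside Irf8, not all in the same direction. The 8 neutrophil markers summed to 33.6 to 49.5 CPM in MR + iBRD9, 55.3 to 65.0 in MR + vector, 63.7 to 90.3 in M + iBRD9 and 66.4 to 72.9 in M + vector, with S100a9 the most abundant and none at 0 throughout, and 3 of the 7 tested were lower in MR + iBRD9 than in MR + vector. Of the macrophage markers, 3 of 8 were lower in the same comparison. Over all tested genes, 2.05% were lower there. The 7 markers of plasmacytoid dendritic cells, which also express Irf8 and Irf7, summed to 49.2 to 55.1, 56.4 to 61.2, 74.7 to 93.7 and 84.8 to 94.0 CPM in the same order of groups. Nearly all of that was Tcf4, the 1 gene of the list that passed the filter, and Ly6d was at 0. The part of any of these cells in the Irf8 values was not tested.

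Irf4 (ENSMUSG00000021356, chromosome 13, 30933209 to 30950959), the closest relative of Irf8 and a factor of alternatively activated macrophages and lymphocytes, had few reads. MR + iBRD9 libraries held 19, 28, 32 and 15 counts, against 13, 18, 23 and 27 in MR + vector, and M + iBRD9 libraries held 90, 99, 121 and 111 counts, against 74, 84, 82 and 106 in M + vector. No library with RANKL reached the lowest library without it. In CPM these are 1.41 ± 0.46 in MR + iBRD9, 1.22 ± 0.30 in MR + vector, 5.93 ± 0.59 in M + iBRD9 and 4.98 ± 0.79 in M + vector. RANKL changed Irf4 by -2.01 ± 0.23 with vector (adjusted p = 6.1e-09) and by -2.06 ± 0.22 under iBRD9 (adjusted p = 1.1e-09), the largest changes of any member, to 0.248 and 0.239 of the level without RANKL. The iBRD9 changes, 0.20 with a 95% interval of -0.35 to 0.75 with RANKL and 0.25 with an interval of -0.12 to 0.62 without, were not called, with wide intervals at these counts. B and plasma cell markers, which could bring Irf4 reads, summed to 1.67 to 3.62 CPM in MR + iBRD9, 2.40 to 3.64 in MR + vector, 2.36 to 3.90 in M + iBRD9 and 2.35 to 3.71 in M + vector.

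Irf1 (ENSMUSG00000018899, chromosome 11, 53660841 to 53669200), an early activator of interferon-gamma and NF-kB responses, rose with RANKL in vector-treated cells. It had 45.5, 54.1, 46.8 and 51.2 CPM in MR + vector, against 42.7, 41.3, 40.1 and 40.0 CPM in M + vector, and these groups did not overlap. With iBRD9 it had 46.8, 51.1, 45.5 and 48.2 CPM in MR + iBRD9, against 41.1, 49.7, 45.4 and 48.5 CPM in M + iBRD9, which overlapped. The RANKL response was 0.27 ± 0.07 with vector (adjusted p = 0.0012) and 0.05 ± 0.07 under iBRD9 (adjusted p = 0.53). Their difference, -0.22 with a 95% interval of -0.40 to -0.03, did not pass after adjustment (adjusted p = 0.27), so the responses are not shown to differ. M + iBRD9 against M + vector gave 0.17 ± 0.07 (adjusted p = 0.12), and 0.22 (adjusted p = 0.035) without replicate 1 of M + iBRD9, its lowest library.

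Irf2 (ENSMUSG00000031627, chromosome 8, 47192767 to 47300493), the antagonist of Irf1, was not called in any comparison. Its libraries spanned 47.7 to 51.5 CPM in MR + iBRD9, 51.8 to 54.7 in MR + vector, 45.9 to 57.2 in M + iBRD9 and 45.7 to 54.5 in M + vector. The groups with RANKL did not overlap, at a change of -0.10 with a 95% interval of -0.23 to 0.03 (adjusted p = 0.54). In FPKM the ratio of Irf1 to Irf2 was 1.81 ± 0.15 in MR + iBRD9, 1.74 ± 0.15 in MR + vector, 1.68 ± 0.19 in M + iBRD9 and 1.53 ± 0.08 in M + vector.

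Irf9 (ENSMUSG00000002325, chromosome 14, 55841028 to 55847487), the DNA-binding subunit of the type I interferon signalling complex, had 102, 101, 104 and 102 CPM in MR + iBRD9, against 88.6, 93.4, 93.8 and 99.4 CPM in M + iBRD9. It had 97.4, 110, 102 and 102 CPM in MR + vector, against 90.8, 90.1, 79.5 and 95.4 CPM in M + vector. Libraries with RANKL were above those without it for both treatments. The change was 0.21 ± 0.05 with vector (adjusted p = 0.0013) and 0.12 ± 0.05 under iBRD9, where the adjusted p of 0.05 was just short of the threshold and each alternative tool, scaling, filter, 2-group fit and block put it below (0.0064 to 0.044). iBRD9 gave -0.01 ± 0.05 with RANKL (adjusted p = 0.96) and 0.08 ± 0.05 without it (adjusted p = 0.43). Irf9 shares 123 bases with Rnf31 on the same strand, which held 773 to 964 counts per library.

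As shares of the summed FPKM of the 8 members, Irf7 took 31.8% in MR + iBRD9, 38.1% in MR + vector, 13.5% to 17.0% in the M + iBRD9 libraries and 19.0% in M + vector. Irf8 took 8.07%, 8.05%, 16.1% and 14.9%, and Irf5 took 37.2%, 32.9%, 41.8% and 41.8%. The ratio of Irf7 to Irf8 was 3.96 ± 0.41 in MR + iBRD9, 4.74 ± 0.33 in MR + vector, 0.995 ± 0.080 in M + iBRD9 and 1.27 ± 0.08 in M + vector. So the groups with RANKL held several times more Irf7 than Irf8 transcript per length, whereas both stood near each other in the groups without it. The summed FPKM of the family was 212 ± 5.80, 237 ± 9.18, 180 ± 4.35 and 184 ± 4.15 in the same order.

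**Figure D3:**
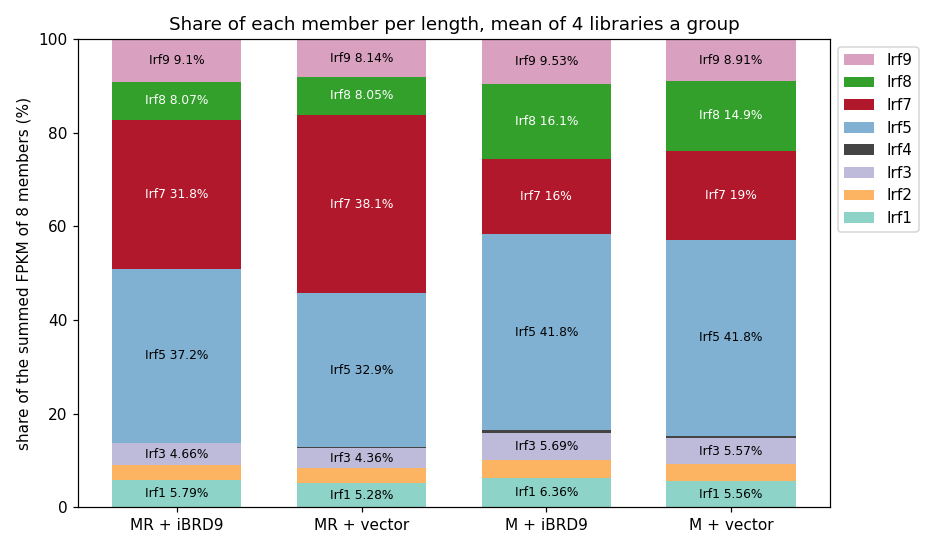
Share of each member in the summed FPKM of the 8 members (vertical axis, %), mean of 4 libraries, for MR + iBRD9, MR + vector, M + iBRD9 and M + vector. Irf7 took 38.1% in MR + vector against 19.0% in M + vector, Irf8 took 8.05% against 14.9%, and Irf4 was under 1% in all groups.

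Across the 16 libraries, log2 CPM of Irf4 and Irf8 had a Pearson r of 0.94, Irf4 and Irf7 of -0.95, and Irf7 and Irf8 of -0.88. Within groups, after taking out the group means, these were 0.32, -0.29 and 0.39, so the relations over all libraries lay mainly between groups. The libraries of a group share treatment and processing, and these values are descriptions. Among 9399 genes of at least 5 CPM, those most like Irf7 over the 16 libraries were Oas1g (r = 0.987), Ifi44 (0.984) and Helz2 (0.984), those most like Irf8 were Arhgap19 (0.989), Cmah (0.989) and Cerk (0.988), and those most like Irf4 were Nxpe5 (0.978), Anxa3 (0.975) and Pkib (0.972). For the other members the closest genes had lower values, led by H2az1, Mrps17 and N4bp3 for Irf9 (0.873 each), Sun2 for Irf2 (0.856), Ptms for Irf1 (0.839), Ptbp1 for Irf5 (0.804) and Fam8a1 for Irf3 (0.758).

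Interferon ligand genes, only some of which IRF3 and IRF7 induce, were almost without reads. Of 21 interferon genes of types I, II and III in the table, 20, Ifnb1 among them, had 0 counts in all 16 libraries, where a count of 0 allows up to 3 per library, and Ifnk had 5 counts in all, in 3 libraries without RANKL. Of the receptor, JAK and STAT genes, 11 of 12 were tested. RANKL raised 5 and lowered 3 with vector and raised 5 and lowered 4 under iBRD9. The shares over all tested genes, which apply to each list below, were 20.1% higher and 20.6% lower with vector. Under iBRD9 the RANKL shares were 24.6% and 25.8%. For iBRD9 they were 0.718% higher and 2.05% lower with RANKL, 3.08% and 3.73% without, and 1.00% and 1.08% for the interaction. Ifnar1, a chain of the type I interferon receptor, rose by 0.31 ± 0.04 with vector, and Ifngr2, a chain of the interferon-gamma receptor, by 0.51 ± 0.05, while Il10rb, shared by the type III interferon receptor, changed by -0.44 ± 0.05 and Stat3 by -0.25 ± 0.05. Stat2, the partner of IRF9 in its complex, averaged 197 ± 1.67 CPM in MR + iBRD9, 242 ± 18.2 in MR + vector, 160 ± 6.98 in M + iBRD9 and 195 ± 7.56 in M + vector. iBRD9 changed Stat2 by -0.29 ± 0.05 with RANKL (adjusted p = 0.00015) and by -0.29 ± 0.05 without it (adjusted p = 0.00018), whereas Irf9 was called in neither. The difference between these genes was not tested. Stat2 was the 1 gene of this list that iBRD9 lowered in either state, and it raised 0 with RANKL and 2 without, Ifngr2 (0.20 ± 0.05, adjusted p = 0.0046) and Il10rb (0.18 ± 0.05, adjusted p = 0.016), of which 1 was left without replicate 4 of M + vector. The interaction called Ifnar2, the other chain of the type I interferon receptor (-0.29 ± 0.07, adjusted p = 0.021), and called 0 without M + vector 2, MR + vector 2, MR + iBRD9 2 or MR + iBRD9 4.

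Of 26 sensors, adaptors and kinases that act upstream of IRF3, IRF5 and IRF7, RANKL raised 12 and lowered 7 with vector and raised 9 and lowered 9 under iBRD9. All tested genes had shares of 20.1% higher and 20.6% lower with vector, and 24.6% and 25.8% under iBRD9. Tank (1.05 ± 0.05 with vector) and Traf3 (1.09 ± 0.06), signalling adaptors, and Ddx58, the RNA sensor RIG-I (1.10 ± 0.05), rose, whereas the endosomal RNA receptors Tlr7 (-0.84 ± 0.05) and Tlr8 (-0.69 ± 0.06) and the kinase Irak4 (-0.48 ± 0.06) fell. iBRD9 with RANKL lowered 7 and raised 0, beside 2.05% and 0.718% of all tested genes, at a list median of -0.07 beside 0 over all genes. Tlr7 had 114 ± 6.09 CPM in MR + iBRD9, against 180 ± 12.7 in MR + vector (-0.66 ± 0.05, adjusted p = 8.5e-11), and the nucleic acid sensor Zbp1 43.1 ± 2.40 against 54.5 ± 6.87 CPM (-0.34 ± 0.08, adjusted p = 0.0071). That count fell to 1 without replicate 1 or without replicate 2 of MR + vector, to 3 without its replicate 4 or with total counts alone, and to 2 without replicate 3 or without replicate 4 of MR + iBRD9. Without RANKL iBRD9 lowered 4, with Tlr7 at -0.27 ± 0.05, and raised Tlr8 (0.25 ± 0.06) and Tlr9 (0.38 ± 0.09). In the interaction Tlr8 (-0.49 ± 0.08, adjusted p = 9e-04), Tlr7 (-0.39 ± 0.07, adjusted p = 0.0029) and the endosomal transporter Slc15a4 (-0.36 ± 0.10, adjusted p = 0.049) were called, all negative like Irf8. The count was 2 with total counts, RLE factors or the stricter filter, and 2 without M + vector 1, 3 or 4, M + iBRD9 1, MR + vector 1 or 2, or MR + iBRD9 1, 3 or 4.

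Among 15 partners, corepressors and feedback regulators of the family, RANKL raised 8 and lowered 2 with vector and raised 9 and lowered 4 under iBRD9. Shares over all tested genes were 20.1% higher and 20.6% lower with vector, and 24.6% and 25.8% under iBRD9. Spi1, which encodes PU.1, rose by 0.41 ± 0.05 with vector while its partners Irf4 and Irf8 fell. The IRF2-binding corepressor gene Irf2bp2 rose by 0.63 ± 0.05 and its relative Irf2bpl changed by -0.70 ± 0.09. Usp18, a feedback inhibitor of the type I interferon receptor, rose by 1.34 ± 0.09 with RANKL and changed by -0.34 ± 0.09 with iBRD9 in RANKL-treated cells (adjusted p = 0.022). Trim30a, a feedback regulator of Toll-like receptor signalling, was the other gene of the list that iBRD9 lowered with RANKL (-0.23 ± 0.05, adjusted p = 0.0051), and the 1 it lowered without (-0.18 ± 0.05, adjusted p = 0.022). The 2 became 1 without MR + vector 1 or 4 or without MR + iBRD9 1, 2 or 3. The 1 without RANKL became 0 without M + vector 4 or in the fit of only these groups, and 2 without M + iBRD9 2.

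Of 33 tested interferon-stimulated genes, RANKL raised 32 with vector and 31 under iBRD9 and lowered 0, at medians of 0.68 and 0.61 beside -0.001 and -0.01 over all genes. Cxcl10, a chemokine, had 53.8 ± 8.42 CPM in MR + vector, against 6.50 ± 0.48 in M + vector, and Oas3, an antiviral synthetase, 286 ± 20.1 against 150 ± 4.51 CPM. iBRD9 lowered 13 and raised 0 with RANKL (median -0.20) and lowered 10 and raised 0 without it (median -0.17), among them Oasl2 (-0.31 ± 0.05 with RANKL) and Oas3 (-0.33 ± 0.06 without). At an unadjusted p under 0.05, 22 were lower with RANKL and 18 without, and 0 were higher in either, and DESeq2 called 13 and 9 lower and 0 higher. With RANKL the 13 became 4, 8 and 7 without replicate 1, 2 or 4 of MR + vector, and 8 and 6 without replicate 1 or 2 of MR + iBRD9, and without RANKL the 10 became 16 without replicate 2 of M + iBRD9, 16 with no filter and 6 in the fit of only these groups. Irf7 thus moved in the direction of this list in all 4 comparisons, while Irf9, also known as an interferon-stimulated gene, was called in the RANKL comparison with vector only (adjusted p = 0.05 for RANKL under iBRD9). OAS genes are near-identical copies in part, and their counts are uncertain where reads could be split.

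Genes described as IRF8 targets in mouse myeloid cells did not move as 1 group. Of 8 tested, RANKL raised 3 and lowered 2 with vector, and raised 3 and lowered 3 under iBRD9. Over all tested genes, 20.1% were higher and 20.6% lower with vector, and 24.6% and 25.8% under iBRD9. The 2 lowered with vector were near that share. Cybb, a subunit of the phagocyte oxidase, rose by 0.54 ± 0.04 with vector and Klf4, a monocyte transcription factor, by 1.36 ± 0.11, whereas Cst3, a protease inhibitor, changed by -0.28 ± 0.04. Cybb was the 1 gene of the list called for iBRD9 with RANKL, at 951 ± 35.9 CPM in MR + iBRD9 against 1118 ± 49.9 in MR + vector (-0.23 ± 0.04, adjusted p = 0.00031), and the 1 called in the interaction (-0.21 ± 0.06, adjusted p = 0.04). The interaction called 0 of the list with total counts alone, and 0 when any 1 of 9 libraries was left out: M + vector 1, 2 and 3, M + iBRD9 2, MR + vector 2 and 4, and MR + iBRD9 2, 3 and 4. Without RANKL, edgeR and DESeq2 called 0 of the 8 for iBRD9, and 2 were lower and 2 higher at an unadjusted p under 0.05.

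**Figure D4:**
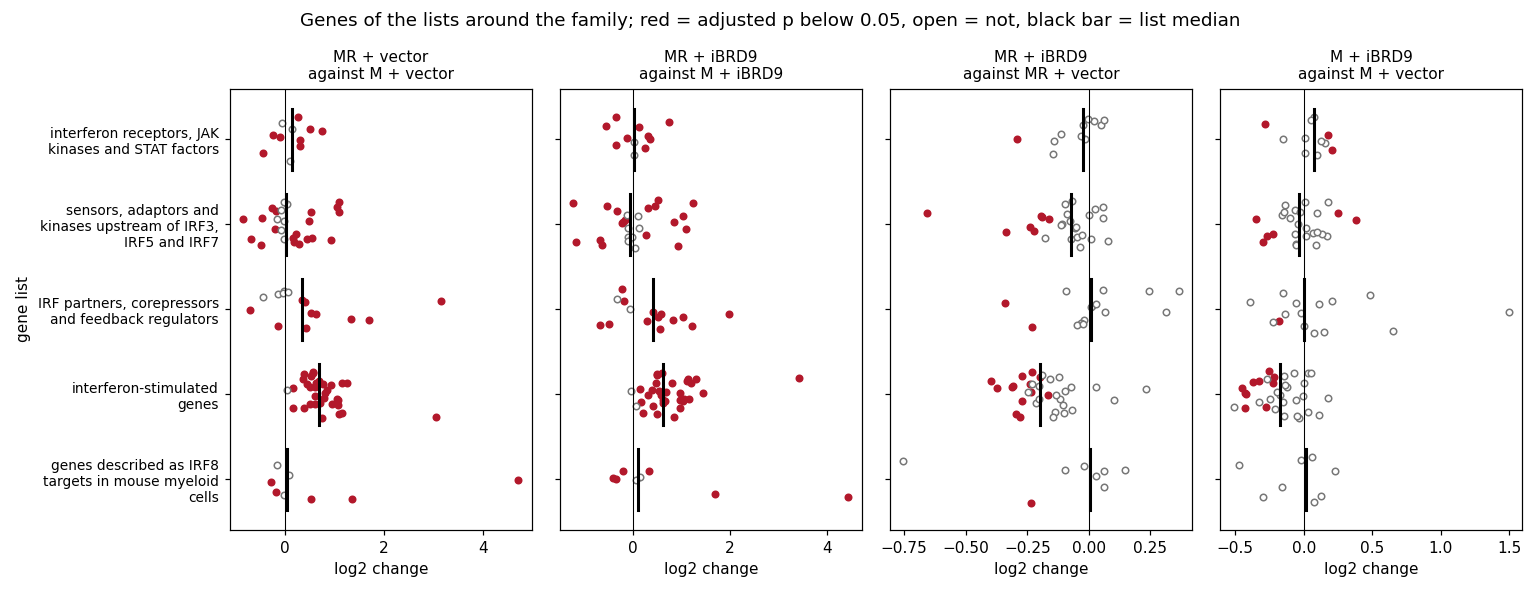
Log2 change (horizontal axes, scaled separately) of the tested genes of 5 lists around the family in 4 comparisons; red points had an adjusted p below 0.05, open points did not, and black bars mark list medians. Interferon-stimulated genes lay to the right with RANKL (median 0.68 with vector) and mostly to the left with iBRD9 (median -0.20 with RANKL and -0.17 without), while the other lists held genes on both sides.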

How the data were processed

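BMDMs were profiled by RNA sequencing in 4 groups of 4 libraries. Per the authors, reads were trimmed (Cutadapt), aligned to GRCm39 (HISAT2) and counted per gene (HTSeq). No source used here gives the strand setting or annotation release. The deposited read counts are not normalized, and the FPKM values beside them were made by the authors from these counts and a gene length. Library totals ran from 15372775 to 18987926. CPM values were computed here with TMM factors (0.976 to 1.02). Counts of all 16 libraries were fitted with edgeR 4.0.16 in R 4.3.3 (quasi-likelihood test, two-sided, TMM, filterByExpr by group, a mean per group, no block), and an adjusted p below 0.05 (Benjamini-Hochberg over 11559 genes) made a call. Intervals are 95% intervals from that fit, and floors of 3 counts cover counting error only. On simulated data for MR + iBRD9 against MR + vector with 11559 genes, the test recovered 43.3% of genes changed 1.2-fold and 100% of those changed 1.5-fold. The changed genes were drawn only from genes above a floor of mean counts. Every gene was simulated with the same biological spread, which real genes need not have. These shares were not split by count, and they are not shown to hold for genes with few reads. Recovery at the counts of Irf4, 15 to 32 in MR + iBRD9 and 13 to 27 in MR + vector, was not tested. The log2 change of Irf4 in this comparison had an SE of 0.27.

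DESeq2 1.42.0, total counts, RLE factors, other filters, fits of 2 groups, a replicate block and leaving out each library were the alternatives. The members and gene lists were chosen with earlier results of these data known. Named genes were the 8 members, up to 3 called genes per list, direction and comparison in order of p, and the 3 genes most like each member. Not every gene named by this rule is reported here. Sequences came from GRCm39 with GENCODE vM39. The table holds 42 rows that share a symbol with another row, none of them a member.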

Additional observations from a re-analysis of the deposited data

Results flagged for a closer look

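Irf5 in replicate 1 of MR + vector stood at 238 CPM, apart from the 3 other MR + vector libraries at 219 to 222 CPM. Among 32 groups of 4 libraries examined (8 members in 4 groups), only this gap took so large a part of its group's range. Chance marks about 1 in 20 groups by this rule. The rule does not measure distance. Irf7 in replicate 3 of MR + vector, at 300 CPM against 343 to 362 CPM, stood further off and was not flagged.

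The iBRD9 response of Irf8 differed between cells with and without RANKL by a log2 value of -0.255 (with RANKL minus without; SE 0.061, adjusted p = 0.022 in edgeR). With RANKL all 4 MR + iBRD9 libraries were below all 4 MR + vector libraries, and without RANKL the groups overlapped. The call was lost without replicate 2 or 4 of M + vector and without M + iBRD9 2, MR + vector 2 or MR + iBRD9 4 (-0.223 to -0.245, adjusted p of 0.051 to 0.079).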

How the results depend on the processing

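Over the alternatives, no called member changed direction, while changes near 0 of members that were not called (Irf1, Irf2, Irf3, Irf5 and Irf9, and the interaction of Irf4) changed sign under some of them. The 5 members called for RANKL with vector were 5 under each alternative. With total counts alone, 1 member (Irf7) was called for iBRD9 with RANKL in place of 2, since Irf8 had an adjusted p of 0.062. Fits of only the 2 groups compared called 499 genes of all for iBRD9 with RANKL (320 otherwise) and 452 without RANKL (787 otherwise). The interaction called 388 genes without the filter and 241 with it. The causes were not tested. Of the alternative values for single members and list counts, 2189 stayed on their side of the threshold or, for counts, within 1.5 times, 65 counts moved further, 15 calls were gained and 11 lost. The 2189 include the counts of the interferon ligand list, which held no gene that passed the filter and stayed at 0 throughout. Total counts also moved the share of higher calls to 38.5% for iBRD9 with RANKL, against 25.9%, and to 67.3% for the interaction, against 48.1%.

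Leaving out 1 library gave 5 to 5 members for RANKL with vector, 3 to 4 for RANKL under iBRD9, 1 to 2 for iBRD9 with RANKL, 1 to 2 without RANKL and 0 to 1 for the interaction. Over all genes it gave 4278 to 4948, 5367 to 5899, 199 to 411, 463 to 1104 and 73 to 541 calls, beside 4709, 5826, 320, 787 and 241 with every library. Outside the 1.5-fold range lay, for iBRD9 with RANKL, replicates 1, 2 and 4 of MR + vector and 4 of MR + iBRD9 (199 to 207), for iBRD9 without RANKL, replicates 3 and 4 of M + vector and 2 of M + iBRD9 (463 to 511), and for the interaction, 6 libraries (73 to 541).

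Libraries with the same replicate number deviated together weakly at most (r of -0.045 to 0.14, median 0.017, over 0.1 in 2 of 24 pairs). Pairs with different numbers had r of -0.1 to 0.102, median -0.016, over 0.1 in 1 of 72 pairs. With the replicate number as a block the members called were 5, 4, 2, 1 and 1, the interaction called 421 genes of all, and iBRD9 without RANKL lowered 7 of the sensor list in place of 4. Depth limits Irf4, whose counts were 13 to 121 per library. Changes near 1.2-fold were recovered only in part on simulated data. Whether depth, spread or group size limits these was not tested.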
